A study of Mus musculus with 12 samples.

Results

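Stromal cells of dissociated mouse islets were chosen by a rule on transcripts of 12 genes in the YFP- single-cell libraries of 2 experiments, and they numbered 188 of the 5982 cells in all single-cell libraries. A member had low transcript counts of the hormone genes Ppy, Gcg, Ins2 and Sst, at least 1 unique molecular identifier (UMI, the tag that marks 1 captured transcript) of at least 3 of the 6 genes Col1a1, Col1a2, Col3a1, Dcn, Lum and Rgs5, and no UMI of Pecam1 or Ptprc. The hormone limits had been set earlier on these data, between the cells low and high in each hormone, on the scale ln(1 + 10000 × UMI / total UMI of the cell). The cells came from 2-month-old mice of mixed background and both sexes whose genotype the single-cell labels give as Ppy-rtTA; R26-YFP, while the bulk labels and the study's methods add TetO-Cre. The rtTA coding region replaced that of Ppy in 1 allele, so that doxycycline, given at 1 mg/ml in the drinking water 1 month before, switched on YFP in cells that expressed Ppy. All cells of both fractions therefore carried these alleles and the drug, and the YFP- fraction held the islet cells that had not been labelled. The label of these samples also holds the word wild-type, which the genotype goes against. Islets were isolated, dissociated and sorted by flow cytometry, cells of several mice were pooled in each of 2 independent experiments, and each fraction was loaded on its own. The tissue label names islets of Langerhans, so these are the connective tissue cells that came along with isolated islets and passed the sort, and their place in or around the islet was not recorded.

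Fibroblasts and their relatives build the extracellular matrix. They secrete procollagen chains that are folded with the chaperone Hsp47, trimmed outside the cell and crosslinked by lysyl oxidases, and small proteoglycans such as decorin sit on the finished fibrils and set their spacing. In the pancreas such cells lie in septa, around ducts and vessels and about the islet, while pericytes share the basement membrane of the islet capillaries with endothelial cells.

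The 250 bases before the transcription start are shown for 4 genes on which the results turn: 2 collagen chains of the rule, the matrix protein gene Dpt that the rule did not use, and the chemokine gene Cxcl13 that very few members carried. The sequences are the RefSeq genome sequence of build GRCm38.p6 on the plus strand, on which all 4 genes lie. The windows are chr6:4505368-4505617 for Col1a2, chr1:45311288-45311537 for Col3a1, chr1:164796413-164796662 for Dpt and chr5:95956689-95956938 for Cxcl13. Capitals mark the letters CCAAT or TATAAA on either strand, a search that found at least 1 such match in 33.8% and 12.4%, respectively, of 32851 windows of this length over 27025 genes.
Col1a2: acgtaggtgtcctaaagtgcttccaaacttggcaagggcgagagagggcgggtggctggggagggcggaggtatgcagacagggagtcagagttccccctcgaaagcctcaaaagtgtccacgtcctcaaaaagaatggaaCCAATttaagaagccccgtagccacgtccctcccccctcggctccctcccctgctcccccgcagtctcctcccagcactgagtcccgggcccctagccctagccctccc
Col3a1: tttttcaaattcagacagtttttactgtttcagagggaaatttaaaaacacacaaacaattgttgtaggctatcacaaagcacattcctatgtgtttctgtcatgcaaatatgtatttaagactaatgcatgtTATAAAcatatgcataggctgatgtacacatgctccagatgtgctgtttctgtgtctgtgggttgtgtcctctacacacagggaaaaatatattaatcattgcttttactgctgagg
Dpt: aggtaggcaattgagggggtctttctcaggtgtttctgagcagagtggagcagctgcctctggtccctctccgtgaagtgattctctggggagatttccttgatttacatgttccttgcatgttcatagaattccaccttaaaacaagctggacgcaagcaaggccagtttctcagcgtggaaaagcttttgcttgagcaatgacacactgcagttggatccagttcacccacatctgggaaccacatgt
Cxcl13: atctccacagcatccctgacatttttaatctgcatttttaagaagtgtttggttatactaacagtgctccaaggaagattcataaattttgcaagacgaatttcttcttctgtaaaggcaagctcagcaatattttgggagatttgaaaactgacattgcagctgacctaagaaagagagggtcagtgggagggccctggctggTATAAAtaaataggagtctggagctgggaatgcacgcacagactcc
Col1a2 held CCAAT with its first base 109 bases before the start, Col3a1 held TATAAA at 117 bases and Cxcl13 held TATAAA at 46 bases. Neither run of letters was found in the Dpt window. A match describes the letters only, and no measurement here shows a factor at these places.

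Members made up 57 of 1495 YFP- cells in experiment 1 (3.81%, exact binomial 95% interval 2.90 to 4.91) and 131 of 1689 in experiment 2 (7.76%, 6.53 to 9.14). These intervals cover counting error only, and with 1 library per experiment no test compares the shares. The members held 209677 UMIs in experiment 1, with a median of 3719 per cell (1331 to 8099), and 348989 UMIs in experiment 2, with a median of 2434 (1004 to 6835). Their depth lay below that of their libraries, whose cells had medians of 8338 and 4237 UMIs. A median of 1419 and 1105 genes was detected per member. Of the cell barcodes of the members, 0 in experiment 1 and 1 in experiment 2 also occurred in another library.

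The 6 genes of the rule divided the hormone-poor cells into those with almost none of them and those with nearly all. Among such cells without Pecam1 and Ptprc, 128 in experiment 1 had 0 of the 6 genes and 33 had 1, while 10 had 4 and 43 had 5. Experiment 2 had 254 cells with 0, 44 with 1, 23 with 4, 101 with 5 and 1 with all 6. The threshold fell into the gap, with 4 and 3 cells just outside it at 2 genes and 4 and 6 cells just inside it at 3 genes. The cells just outside had a median of 2 of 16 fibroblast markers that the rule did not use, in both experiments, and those just inside had 3.5 and 7.

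**Figure D1:**
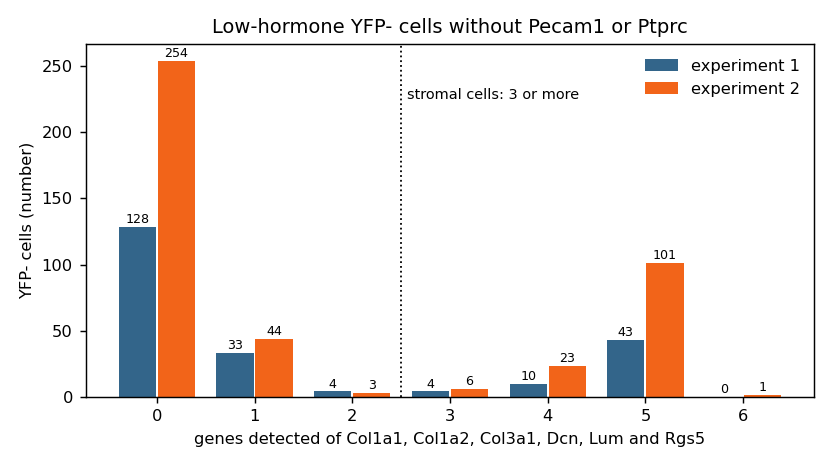
Number of hormone-poor YFP- cells without Pecam1 and Ptprc UMIs (y axis) by how many of the 6 stromal genes had a UMI (x axis), for each experiment. Most cells sit at 0 or 1 gene or at 4 and 5 genes, and 3 to 6 cells sit at each of 2 and 3 genes.

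The plot of genes detected per cell shows the gap in both experiments. These values chose the members and are given as a description.

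Dcn, which encodes decorin, was the most abundant of the 6 genes. Levels are given as CPM, the UMIs of a gene when the summed UMIs of its class are scaled to 1000000, a scale on which each transcript is tagged once near its 3′ end and gene length does not enter. Dcn stood at 10411 CPM in experiment 1 (Poisson 95% interval 9979 to 10857) and 5579 CPM in experiment 2 (5334 to 5832), and 55 and 129 members had a UMI of it. Col3a1, the fibrillar collagen of pliable tissues, stood at 4283 and 5413 CPM. Col1a2 and Col1a1, the 2 chains of type I collagen, stood at 2351 and 3470 CPM and at 1168 and 1799 CPM. Lum, another small proteoglycan of collagen fibrils, stood at 1068 and 1181 CPM. Thus the decorin level was higher in experiment 1 and the 3 collagen levels were higher in experiment 2. In the other classes of the YFP- libraries the levels of these 5 genes lay at or below 24.3 CPM. All of these other classes, the endocrine ones included, were chosen to have under 3 of the 6 genes, so their low levels follow from the choice. Rgs5, a regulator of G-protein signalling that marks pericytes, behaved otherwise, with UMIs in 2 and 1 members, 76.3 and 11.5 CPM, and 252 and 504 CPM in the endothelial-like cells. All but 3 members were therefore chosen without an Rgs5 UMI, which does not show that they lacked the transcript.

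The name was checked with markers that took no part in the choice. All 57 members of experiment 1 and 130 of 131 members of experiment 2 had UMIs of at least 3 of 14 stromal markers outside the rule, with medians of 9 and 8. At least 3 of 16 fibroblast markers were detected in 56 and 130 members, with medians of 11 and 10. Contractile and pericyte markers reached 3 of 19 in 13 and 11 members, and their summed level was 1140 and 444 CPM, led by Mylk in experiment 1 (205 CPM) and by Pdgfrb in experiment 2 (83.1 CPM). Endocrine markers reached 3 of 8 in 8 and 15 members, acinar markers 3 of 7 in 2 and 1, mesothelial markers 3 of 7 in 2 and 2, myeloid markers 3 of 9 in 1 and 0, and ductal markers 3 of 7 in 0 and 1. No member reached 3 endothelial, lymphoid, glial or adipocyte markers. Adipoq, Cidec, Cfd, Retn and Lep of 6 adipocyte markers had no UMI in any member, nor did the Schwann cell gene Sox10. By these counts the members were fibroblast-like. Single genes that pericytes share were found in part of them, with Pdgfrb in 18 and 23 members and Mylk in 16 and 19.

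All hormone transcripts were found in these cells, at levels near those of other cells under the same hormone limits. Endothelial-like and myeloid-like cells were set beside the members for this purpose and were chosen by the same hormone limits, by at least 3 of 8 endothelial or 9 myeloid markers and by under 3 of the 6 stromal genes. There were 72 and 173 endothelial-like and 77 and 234 myeloid-like cells. Ins2, the main insulin gene, stood at 9491 and 3456 CPM in stromal cells, 10315 and 3874 CPM in endothelial-like cells and 9037 and 3293 CPM in myeloid-like cells. Gcg, the glucagon gene, stood at 1431 and 3694, 1509 and 4208, and 1451 and 3701 CPM in the same order. Sst, the somatostatin gene, stood at 329 and 507 CPM in stromal cells against 412 and 542 CPM in endothelial-like cells. Within each experiment the 3 classes carried similar levels of Ins2 and Gcg, and between experiments all 3 moved together, with more Ins2 in experiment 1 and more Gcg in experiment 2. Ppy differed more, at 95.4 and 175 CPM in stromal cells, 137 and 240 CPM in endothelial-like cells and 59.8 and 174 CPM in myeloid-like cells. Ppy, which the rule kept low, had UMIs in 17 and 45 members, with highest values of 1.91 and 2.90 on the natural-log scale. Iapp, the amyloid peptide of beta cells, showed the same at 682 and 393 CPM against 714 and 475 CPM in endothelial-like cells. In the edgeR test described below, 0 of 8 endocrine markers were called against endothelial-like cells (1 at an unadjusted p under 0.05, and 0 in DESeq2). Against myeloid-like cells 1 of the 8, Isl1, was called higher in edgeR, and 1 in DESeq2. All 8 were lower than in endocrine cells.

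**Figure D2:**
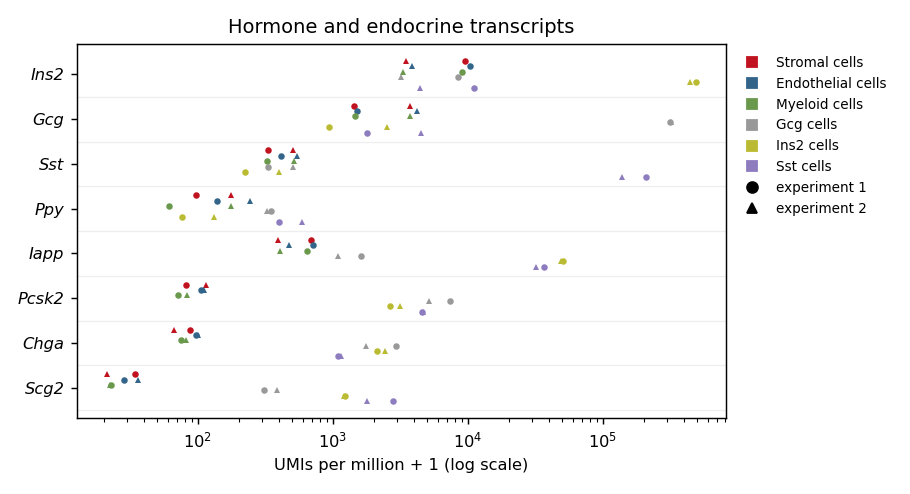
Levels (CPM + 1, log axis) of 4 hormone genes and of Iapp, Pcsk2, Chga and Scg2 in stromal, endothelial-like, myeloid-like, Gcg, Ins2 and Sst cells of the YFP- libraries, 1 point per class and experiment. Within an experiment the 3 classes without hormone identity lie close together for Ins2, between 9037 and 10315 CPM in experiment 1 and between 3293 and 3874 CPM in experiment 2.

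For Ins2 and Gcg the plotted points of these 3 classes go by experiment and not by class. All 3 classes were chosen under the same hormone limits, so the levels of these hormones are a description and show neither expression nor its absence in stromal cells.

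To find which genes set the stromal cells apart, UMIs were summed per class and experiment and 3 comparisons were fitted in edgeR with the experiment as a block: against endothelial-like cells, against myeloid-like cells, and against the mean of cells with Gcg, Ins2 or Sst alone above its limit (325 and 336, 433 and 88, and 135 and 140 cells). Calls required a Benjamini-Hochberg adjusted p no higher than 0.05 together with a natural-log fold above 0.5. Genes used to choose either class were left out, but genes that go along with them differ through the choice of cells. A gene could also pass the low-count filter through its level in 1 class alone. Some genes were thus tested because they were high in stromal cells, and a list whose tested members were all higher is no test of that list. Every count below is to be read against the share of all genes called. Of 8396 genes tested against endothelial-like cells, 18.3% were called, 9.68% higher and 8.59% lower in stromal cells. Against myeloid-like cells 32.6% of 8393 genes were called, 18.2% higher and 14.4% lower. Against endocrine cells 35.2% of 8403 genes were called, 19.4% higher and 15.9% lower. The p-values measure the spread that remains among the 12 sums once class and experiment are fitted. For each gene this spread was estimated jointly over all 6 classes, the endocrine ones included. The comparisons also share the stromal sums. Over all genes the median log2 fold change was -0.00075, 0.044 and -0.066.

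**Figure D3:**
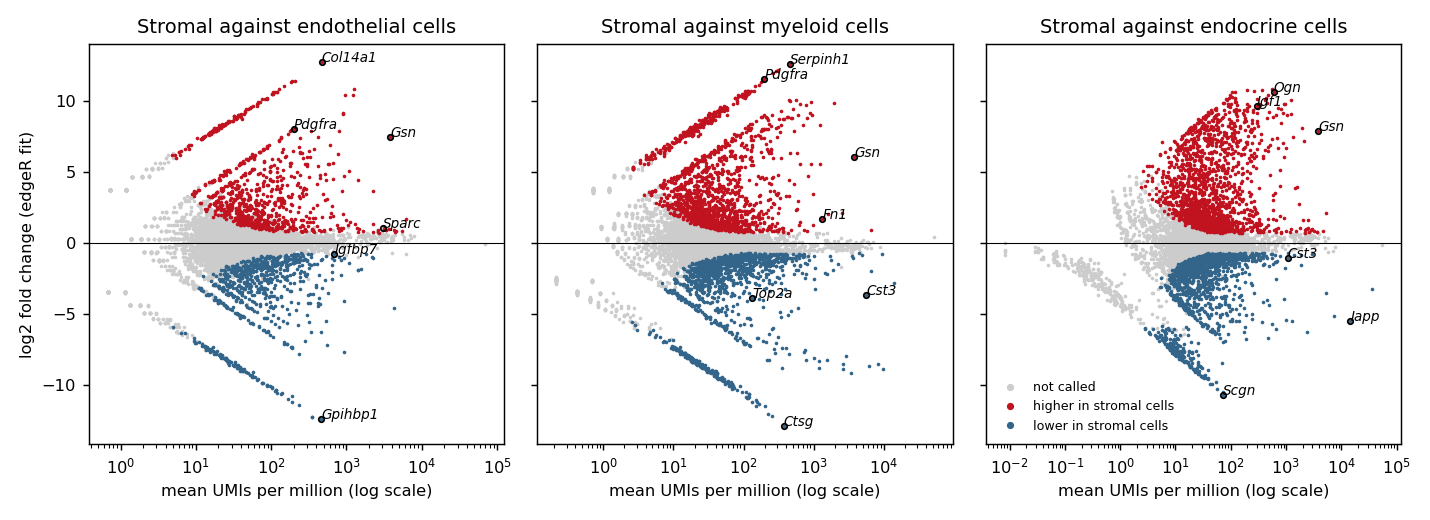
Log2 fold change of each tested gene (y axis) against its mean level (x axis, log scale) in the comparisons of stromal cells with endothelial-like, myeloid-like and endocrine cells, with genes called higher in red and lower in blue. The outermost stripes in the first 2 panels are genes with no UMI in 1 of the classes, and 813, 1526 and 1627 genes were higher in stromal cells.

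The plot of fold changes shows calls at all expression levels, in both directions.

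Most fibrillar and filament-forming collagens outside the rule were also higher in stromal cells, while some other collagens were not. The fibrillar collagen genes Col5a1, Col5a2 and Col5a3, whose product starts type I fibrils, were all 3 called higher in each comparison, although DESeq2 called only 1 of the 3 against endothelial-like cells, 1 against myeloid-like cells and 2 against endocrine cells. Col5a2 stood at 358 and 421 CPM in stromal cells, 9.15 and 24.3 CPM in endothelial-like cells and at most 1.70 CPM in the other classes. Of 9 other collagens tested against endothelial-like cells 8 were higher in edgeR and 5 in DESeq2. Among them Col6a1, Col6a2 and Col6a3, which form the beaded filaments of type VI collagen, stood at 630 and 728, 486 and 691, and 320 and 450 CPM. DESeq2 did not call Col6a2 in this comparison. Col14a1, which binds to fibril surfaces, stood at 858 and 1026 CPM and had no UMI in endothelial-like cells, which makes it at least 189-fold higher by the level that 3 UMIs over the class would give. The exception was Col13a1, a membrane collagen with no UMI in members, which was at least 14.9-fold lower. The 5 small proteoglycans that passed the filter, of 7 outside the rule, were higher in each comparison in edgeR. DESeq2 called 3, 3 and 4 of the 5 against endothelial-like, myeloid-like and endocrine cells. Ogn (mimecan) stood at 1292 and 1100 CPM and Bgn (biglycan) at 897 and 1060 CPM. Bgn was also found in endothelial-like cells at 137 and 135 CPM, and the log2 fold change was 3.08 (SE 0.38, edgeR adjusted p = 1.85e-05).

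Basement membrane genes divided between stromal and endothelial-like cells. Of 14 tested, 5 were higher and 3 lower than in endothelial-like cells, with a median log2 fold change of 0.30, whereas 11 and 12 were higher than in myeloid-like and endocrine cells. Nid1 (nidogen 1), which links laminin to type IV collagen, stood at 630 and 1192 CPM against 142 and 124 CPM in endothelial-like cells, and Lamc1 (laminin γ1) at 329 and 301 against 68.6 and 45.9 CPM. Stromal levels of both exceeded all endothelial-like levels. Type IV collagen went the other way. Col4a2 stood at 253 and 269 CPM against 750 and 607 CPM in endothelial-like cells, and the log2 fold change was -1.14 (SE 0.25, edgeR adjusted p = 0.00399). Its partner chain Col4a1 stood at 267 and 513 against 714 and 790 CPM and missed the threshold in edgeR (adjusted p = 0.0504). Lama5, the laminin α5 chain of vessel walls, had no UMI in any member and was at least 7.90-fold lower. Col15a1, which anchors fibrils to basement membranes, stood at 258 and 330 CPM against 284 and 219 CPM, so that the classes overlapped.

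Elastic fibre and microfibril genes were among the most abundant. Of 14 tested, 11 were higher than in endothelial-like cells, with a median log2 fold change of 2.90, and all 14 were higher than in the other classes. Mfap5, a microfibril glycoprotein gene, stood at 2451 and 1186 CPM, against 2 UMIs in endothelial-like cells (ratio 489, counting interval 135 to 4048). Fbn1 (fibrillin 1), the backbone of microfibrils, stood at 1230 and 1352 CPM against 36.6 and 27.0 CPM. Eln (elastin) stood at 277 and 496 against 91.5 and 210 CPM, a log2 fold change of 1.59 (SE 0.27, edgeR adjusted p = 0.000571). Ltbp4, a binder of latent TGFβ, stood at 482 and 499 CPM against 618 and 491 CPM and did not pass the test, nor did Fbln2 and Fbln5.

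The machinery that makes and remodels fibrils was found beside its products. Of 17 genes for collagen folding and crosslinking, 10 were higher than in endothelial-like cells (8 in DESeq2), 14 than in myeloid-like cells and 15 than in endocrine cells, and the median log2 fold change against endothelial-like cells was 1.83. Serpinh1, which encodes the chaperone Hsp47, stood at 897 and 948 CPM against 329 and 281 CPM in endothelial-like cells, and no UMI of it was found in myeloid-like cells. Loxl1, a lysyl oxidase of elastic fibres, stood at 434 and 398 CPM, and Pcolce, which speeds the trimming of procollagen, at 720 and 318 CPM. Sparc, a collagen-binding glycoprotein, was the most abundant gene of the set at 4569 and 3264 CPM. Endothelial-like cells had 2557 and 1775 CPM of it, and although both stromal levels were higher the fit did not call the difference (log2 fold change 1.08, SE 0.47, edgeR adjusted p = 0.13). Among proteases and their inhibitors 11 of 14 were higher than in endothelial-like cells (8 in DESeq2). Timp2, an inhibitor of metalloproteinases, stood at 1478 and 2109 CPM against 73.2 and 83.6 CPM. Adamts5, which cleaves large proteoglycans, stood at 801 and 682 CPM and Mmp2, a gelatinase, at 353 and 361 CPM. Cst3 (cystatin C), an inhibitor of cathepsins, went against the list, at 1154 and 639 CPM in stromal cells and 16409 and 4382 CPM in myeloid-like cells.

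**Figure D4:**
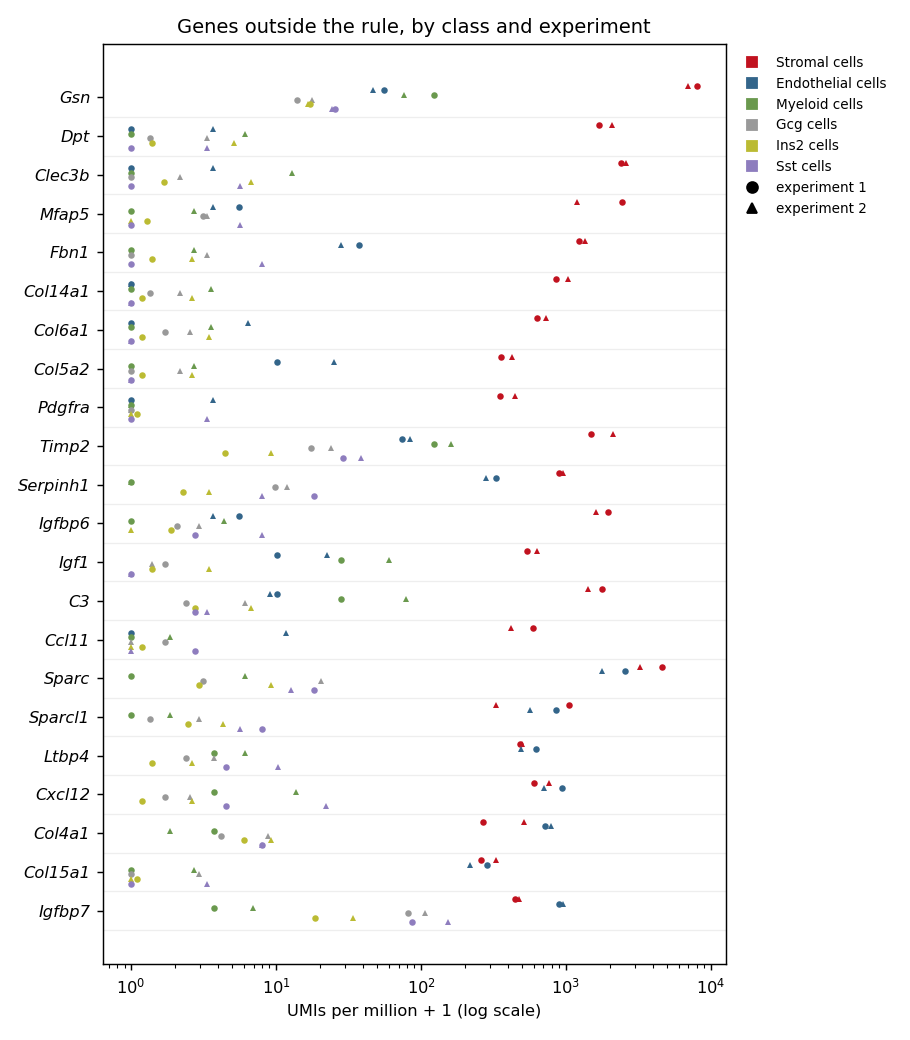
Levels (CPM + 1, log axis) of selected genes outside the rule in stromal cells and in the other classes of the YFP- libraries, 1 point per class and experiment. Genes such as Gsn (8084 and 6974 CPM) lie far above all other classes, while from Sparc downwards the endothelial-like points lie close to the stromal ones.

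The plot of levels by role shows where the endothelial-like cells share a gene with the stromal cells.

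Fibroblast markers outside the rule included abundant transcripts. Gsn, which encodes the actin-severing and secreted protein gelsolin, stood at 8084 and 6974 CPM, above every other class, the highest of which was 122 CPM in myeloid-like cells. The log2 fold change against endothelial-like cells was 7.44 (SE 0.31, edgeR adjusted p = 2.73e-10). Clec3b (tetranectin) stood at 2389 and 2593 CPM and Dpt (dermatopontin), which binds decorin, at 1703 and 2092 CPM, each against 1 UMI in endothelial-like cells. When every cell was thinned to 1000 UMIs, Dpt was detected in 78.9% and 74.0% of members against 0% and 0.893% of Gcg cells, whose median depth before thinning was 7865 and 6308 UMIs. Pdgfra, the PDGF receptor of fibroblasts, stood at 348 and 444 CPM and was found in 35 and 84 members. Pdgfrb, the receptor shared with pericytes, stood at 124 and 83.1 CPM. Of 16 fibroblast markers tested, 13 were higher than in endothelial-like cells (9 in DESeq2, median log2 fold change 7.56, or 6.23 with genes absent from 1 class at their bound) and all 16 higher than in myeloid-like and endocrine cells. The exceptions were Fbln2 and the surface antigens Cd34 and Ly6a. Ly6a stood at 1998 and 1539 CPM against 2100 and 2487 CPM in endothelial-like cells.

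No contractile or pericyte gene was called higher in the members than in endothelial-like cells. That class itself held 4 and 18 cells with at least 2 Rgs5 UMIs and no Ptprc UMI, at 252 and 504 CPM of Rgs5 over the class, and their part in the comparison was not tested. Of 13 tested in edgeR 0 were higher (3 at an unadjusted p under 0.05, and 0 in DESeq2), 3 were lower, namely Notch3, Mcam and Rgs4 (1 of them, Rgs4, in DESeq2), and the median log2 fold change was 0.15. Acta2, the smooth muscle actin gene, stood at 148 and 22.9 CPM in stromal cells, from 5 and 4 members, with 23 of the 31 UMIs of experiment 1 in 1 member, and at 36.6 and 116 CPM in endothelial-like cells. Myl9, a myosin light chain gene, likewise had 21 of its 31 UMIs of experiment 1 in 1 member. Against myeloid-like cells 10 were higher (7 in DESeq2), and against endocrine cells 11 were higher (9 in DESeq2) and 1 was lower.

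Among adhesive glycoproteins, Fn1 (fibronectin) stood at 1955 and 2281 CPM. It was higher than in endothelial-like cells (64.0 and 83.6 CPM) and in myeloid-like cells (674 and 419 CPM), the latter by 1.70 on the log2 scale (SE 0.38, edgeR adjusted p = 0.0023), a call that DESeq2 did not make. Tnxb, a tenascin of loose connective tissue, stood at 701 and 602 CPM and Postn (periostin) at 300 and 398 CPM. Of 13 genes of this list 6 were higher and 3 lower than in endothelial-like cells, the lower ones being Spp1, Cyr61 and Igfbp7, of which DESeq2 called only Igfbp7 and the fit without the experiment block called neither Spp1 nor Igfbp7. Spp1 (osteopontin) had UMIs in 0 and 4 members.

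Secreted factors of several families were transcribed. In the insulin-like growth factor system, Igf1 stood at 539 and 630 CPM and was found in 27 and 70 members. Endothelial-like cells had 9.15 and 21.6 CPM of it, myeloid-like cells 27.2 and 59.6 CPM and endocrine cells at most 2.46 CPM. Stromal cells were thus the highest class for this ligand in both experiments. Of its binding proteins, Igfbp6 stood at 1960 and 1613 CPM, Igfbp4 at 1054 and 1118 CPM and Igfbp5 at 730 and 1310 CPM, all higher than in endothelial-like cells. Igfbp3 and Igfbp7 were lower, with Igfbp7 at 444 and 473 against 901 and 952 CPM, and the call on Igfbp7 was lost without the experiment block. The receptor gene Igf1r stood at 90.6 and 100 CPM against 96.1 and 91.7 CPM.

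Of 21 secreted growth factors tested, 8 were higher (6 in DESeq2) and 1 lower than in endothelial-like cells, with a median log2 fold change of 1.91. Gdf10, a TGFβ family member, stood at 262 and 160 CPM, Ptn (pleiotrophin) at 215 and 275 CPM from 6 and 20 members, and Angptl2 at 134 and 178 CPM. Kitl, the ligand of Kit, was the lower one, at 9.54 and 17.2 against 160 and 254 CPM. Fgf7, a fibroblast growth factor that acts on epithelia, stood at 62.0 and 34.4 CPM in stromal cells and at 4.57 and 0 CPM in endothelial-like cells.

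Of 15 chemokines and cytokines listed, 9 passed the filter, and 7 of these were called higher against endothelial-like cells (5 in DESeq2). Their median log2 fold change was 6.35, or 3.19 with bounds. Ccl11 (eotaxin), which attracts eosinophils, stood at 596 and 418 CPM and Il33, an alarm cytokine of stromal cells, at 167 and 224 CPM. Cxcl12, which holds leukocytes through Cxcr4, stood at 606 and 768 CPM and in endothelial-like cells at 938 and 707 CPM, with a log2 fold change of -0.07 (SE 0.32, edgeR adjusted p = 0.944). Cxcl13, which attracts B cells, had the highest level of the family at 3710 and 1206 CPM, but this level rested on a few cells that are described below.

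Wnt modulators were mainly secreted inhibitors. Sfrp1, Sfrp4 and Sfrp2, which bind Wnt ligands, stood at 176 and 198, 191 and 160, and 100 and 201 CPM, and Sfrp2 had no UMI in any other class. Of the ligands, Wnt5a stood at 52.5 and 132 CPM. Of 18 genes listed 12 were tested, and against endothelial-like cells 8 were higher in edgeR but 3 in DESeq2. Against endocrine cells 9 were higher (5 in DESeq2) and 3 lower, the lower ones being Wnt4, Sfrp5 and Frzb.

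The 7 complement genes that passed the filter, of 9 listed, were all higher against endothelial-like cells (5 in DESeq2) and against endocrine cells. Against myeloid-like cells 6 of the 7 were higher (5 in DESeq2). C3, the central component, stood at 1779 and 1410 CPM, against 9.15 and 8.09 CPM in endothelial-like cells and 27.2 and 77.4 CPM in myeloid-like cells. Serping1, the inhibitor of the first component, stood at 1903 and 1169 CPM and the protease gene C1s1 at 568 and 602 CPM. Retinoid genes included Aldh1a1 and Aldh1a2, which make retinoic acid, at 162 and 88.8 and at 90.6 and 68.8 CPM. Lrat, which esterifies retinol in stellate cells, had no UMI in any member. Of 9 retinoid genes tested, 7 were higher and 1 (Dhrs3) lower than in endothelial-like cells.

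Of 18 mesenchymal transcription factors tested, 8 were higher (5 in DESeq2) and 1 lower than in endothelial-like cells, and 16 were higher than in each of the other references. Ebf1 was the most abundant at 1612 and 1192 CPM and was shared with endothelial-like cells at 686 and 701 CPM (log2 fold change 1.24, SE 0.37, edgeR adjusted p = 0.0265), a call that was lost in DESeq2 and without the experiment block. Klf4 stood at 434 and 427 CPM and Zeb2 at 334 and 355 CPM, and Klf4 was not called against endothelial-like cells. Prrx1 and Osr1, factors of limb and visceral mesenchyme, stood at 200 and 258 and at 176 and 106 CPM. Meox1 was the lower one, at 0 and 5.73 against 201 and 148 CPM. Among receptors, Lrp1, a scavenger receptor, stood at 525 and 582 CPM, Tgfbr2 at 324 and 610 CPM and Fgfr1 at 238 and 281 CPM, and 8 of 12 receptors were higher than in endothelial-like cells (6 in DESeq2).

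Cell cycle transcripts were scarce. Of 10 such genes 0 were called against endothelial-like cells in edgeR (0 at an unadjusted p under 0.05, and 0 in DESeq2), and all 10 (9 in DESeq2) were lower than in myeloid-like cells, where Top2a stood at 201 and 290 CPM. Stromal cells had 4.77 and 34.4 CPM of Top2a and UMIs of Mki67 in 0 and 4 members. Against endocrine cells 1 of the 10, Top2a, was called higher (log2 fold change 2.21, SE 0.82, edgeR adjusted p = 0.0441), a call that was lost in DESeq2 and without the experiment block, and 7 of its 12 UMIs in experiment 2 came from 1 member.

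Markers of other cell types were tested in the same fits. Against endothelial-like cells edgeR called 0 of 7 acinar, 0 of 9 myeloid and 0 of 3 lymphoid markers (each 0 at an unadjusted p under 0.05 and 0 in DESeq2), while 3 of 7 ductal markers, the epithelial genes Krt18 and Epcam and the gene Spp1, were lower. Of 4 mesothelial markers Wt1 was higher and Krt8 lower, and of 3 glial markers Cryab, a small heat shock protein gene, was higher in edgeR but not in DESeq2. Against the mean of the endocrine classes 5 of 7 acinar markers were lower. Their summed level differed between these classes, at 3670 and 7349 CPM in Sst cells, 2397 and 197 CPM in Gcg cells and 578 and 56.7 CPM in Ins2 cells. Summed levels in stromal cells of experiments 1 and 2 were 195.5 and 100.3 CPM for acinar, 66.8 and 83.1 CPM for myeloid, 33.4 and 65.9 CPM for lymphoid and 47.7 and 68.8 CPM for endothelial markers. What part such transcripts have in the levels above was not tested.

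The largest differences in each comparison were named by a fixed rule. Against endothelial-like cells these were Col14a1, Pcolce2, Fndc1, Scara5, Abca8a, Col5a1, Clec3b, Svep1, Scn7a and Gas1, of which all but Clec3b had no UMI in endothelial-like cells and were at least 44.7-fold higher (Scn7a) to at least 189-fold higher (Col14a1). In the opposite direction the members had no UMI of the vessel genes Gpihbp1, Cd93, Cldn5, Esm1, Rgcc, Mecom, Cyyr1, Tmem88 and Thrsp, and Gpihbp1, which carries lipoprotein lipase across capillaries, was at least 170-fold lower. Ccl21a, a chemokine of lymphatic vessels that has near-identical copies in the genome, was at least 153-fold lower. DESeq2 did not call Col5a1, Svep1, Gas1, Mecom, Cldn5, Esm1, Thrsp and Ccl21a in this comparison. Against myeloid-like cells the highest were Serpinh1, Cd248, Col6a2, Tmem100, Pdgfra, Col6a3, Islr, Fbln1, Abca8a and Prrx1, none of which had a UMI there. Cd248 (endosialin) stood at 591 and 665 CPM, at least 328-fold higher. Ctsg and Ms4a3, genes of granulocyte and monocyte precursors, led the lower ones at no less than 176-fold and 101-fold, followed by Laptm5, F13a1, Aif1, Ccr2, Nkg7, Mpeg1, Plbd1 and Ms4a6c. Against endocrine cells Rarres2, Adamts5, Tmem100, Abi3bp, Ogn, Gpx8, Col14a1, Ms4a4d and Gdf10 were among the highest. Rarres2 (chemerin) stood at 1502 and 739 CPM and at no more than 1.41 CPM in any endocrine class. The lower ones were Scgn, Bex1, Unc80, Slc7a14, Slc2a5, Cdh2, Epcam, C1qtnf4, Kcnmb2 and Map2, and Scgn (secretagogin), a calcium sensor of islet cells, was at least 22.5-fold lower.

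Levels within the stromal cells also differed between the experiments. The Dcn ratio of experiment 1 to experiment 2 was 1.87 (counting interval 1.75 to 1.99), and Mfap5 (2.07), Rarres2 (2.03) and Sparcl1 (3.18) were also higher in experiment 1. Nid1 (0.53) and Col4a1 (0.52) were lower there. Ier2 and Junb, immediate early genes that respond within minutes to stimuli, had ratios of 3.63 (2.52 to 5.31) and 3.10 (2.23 to 4.34), while Dusp1 stood at 205 and 278 CPM. Of 11 immediate early genes, 1 was higher and 1 lower than in endothelial-like cells. With 1 library per experiment these ratios carry counting error only, and mice, dissociation and sequencing cannot be told apart.

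The members were not uniform. Pi16, a peptidase inhibitor gene that marks a fibroblast state found in many tissues, had UMIs in 36 of 57 and 82 of 131 members, with a median of 5 and 3 UMIs where present and at most 20 and 21. After thinning to 1000 UMIs it was detected in 49.1% and 46.6% of members, against 0% and 0.893% of Gcg cells and 2.78% and 2.89% of endothelial-like cells. The division by Pi16 was made after its values were seen, so the following levels are a description. Members with a Pi16 UMI were deeper, with medians of 3810 and 2598 UMIs against 2872 and 2131. Mfap5 stood at 3634 and 1634 CPM in members with Pi16 and at 345 and 431 CPM in those without. Fbn1 stood at 1817 and 1926 against 186 and 385 CPM, and Sema3c, a secreted guidance cue, at 484 and 867 against 53.1 and 146 CPM. Anxa3, Cd248, Creb5 and Fndc1 were likewise higher with Pi16 in both experiments. Apoe, the lipid carrier, went the other way at 678 and 256 CPM with Pi16 and 3276 and 1540 CPM without. Tmem176b stood at 164 and 73.0 against 1247 and 701 CPM, and Igfbp7 at 283 and 310 against 729 and 747 CPM. Of the genes of the rule, Dcn stood at 10672 and 5536 CPM with Pi16 and 9947 and 5652 CPM without. Lum was 1.40 and 1.43 times as high with Pi16 as without it, and Col3a1 1.61 and 1.08 times.

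**Figure D5:**
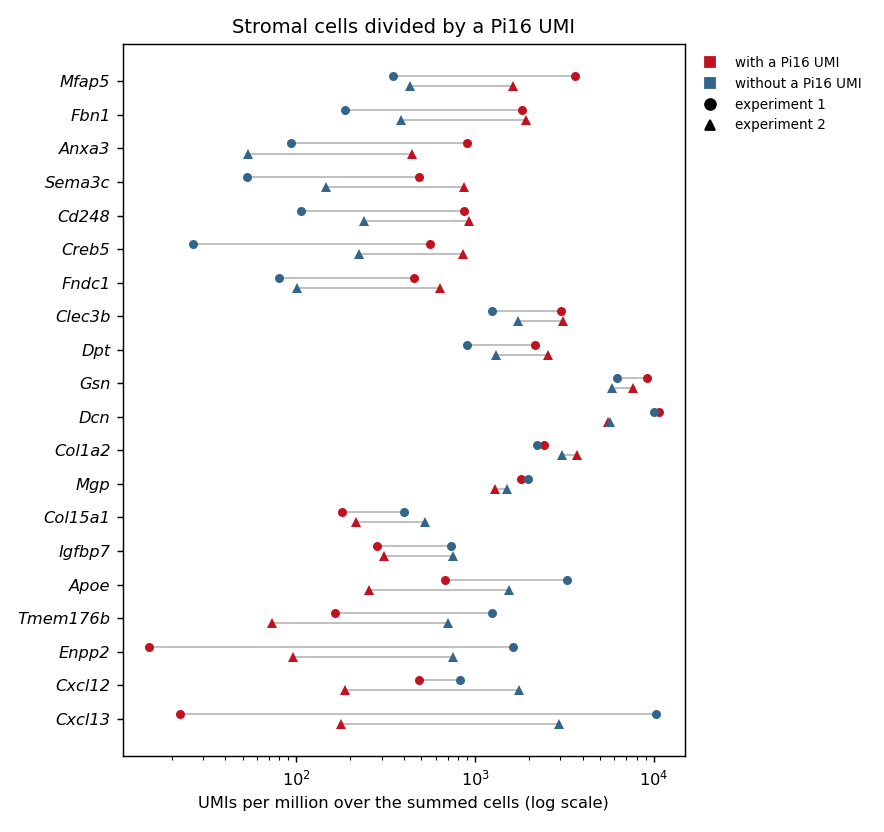
Levels (CPM, log axis) of genes over members with a Pi16 UMI (red) and without one (blue), joined by a line for each experiment. Mfap5, Fbn1 and Sema3c are higher with Pi16, Apoe and Tmem176b are higher without it, and both points of Dcn nearly coincide.

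The plot of members with and without Pi16 shows Mfap5, Fbn1, Sema3c, Apoe and Tmem176b on the same side in both experiments, and Dcn on different sides by a small margin.

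Across cells, Pi16 and 1320 other genes that were detected in at least 20% of members were correlated on the natural-log scale within each experiment. Genes were ranked in both directions by the weaker of their correlations with Pi16. Fbn1 (r = 0.68 and 0.59 over 57 and 131 cells), Mfap5 (0.79 and 0.59), Pcsk6 (0.59 and 0.62), Sema3c (0.72 and 0.56) and Cd248 (0.70 and 0.55) were most like Pi16. Tmem176b (-0.58 and -0.49), Apoe (-0.70 and -0.43), Cxcl12 (-0.42 and -0.43) and Igfbp7 (-0.55 and -0.37) were most unlike it. The cells of an experiment share a library and differ in depth, so these values describe the cells and carry no test.

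Cxcl13 was concentrated in single members. Of its 778 UMIs in experiment 1, 483 and 274 came from 2 members and the next had 6. Of 421 UMIs in experiment 2, 274 came from 1 member, 65 and 38 followed, and 4 members had 10 or more. In all, 8 and 12 members had a UMI of it, of which 1 and 2 also had Pi16. Members with a Cxcl13 UMI were deeper, with medians of 4449 and 3299 UMIs against 3719 and 2333. They had more Enpp2, which makes lysophosphatidic acid, at 2748 and 1673 CPM against 155 and 180 CPM in the others. Wt1 stood at 336 and 398 against 63.2 and 57.8 CPM, Cdh11, a mesenchymal cadherin, at 364 and 478 against 34.5 and 48.2 CPM, and Apoe at 3589 and 2230 against 1207 and 552 CPM. Gsn was lower in them, at 1822 and 2761 against 9367 and 7484 CPM. With 8 and 12 cells, chosen after the values were seen, these levels are a description of those cells.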

How the data were processed

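Matrices of raw UMI counts were deposited by the authors, made with Cell Ranger on mm10 with YFP and rtTA added and holding cells of at least 1000 UMIs. Library totals were 18330975 and 10683494 UMIs (YFP-) and 11705631 and 11523971 (YFP+). The bulk table was not used, and 6 of its columns fit no sample described here. Members, classes, 30 gene lists (374 genes, 3 not found) and tests were chosen with earlier results of these data known. Named genes were the 12 of the rule, the 4 most abundant of each list and, per direction, the 10 called genes of largest fold change with at least 50 CPM and no overlap between classes; others were chosen after their values were seen, and a few genes that the rule names are not reported here. UMIs of 31055 genes were summed over 6 classes in 2 experiments and tested in edgeR 4.0.16 (R 4.3.3, TMM, filterByExpr, quasi-likelihood) with the experiment as a block. On simulated data more calls than the nominal share were false. Changes of 2-fold were recovered in 6%, 11% and 24% of cases against endothelial-like, myeloid-like and endocrine sums. Changes of 4-fold were recovered in 43%, 55% and 63%. A gene not called may therefore still differ, also by a large fold. The experiments were independent and each pooled mice, and all classes compared came from the YFP- library of an experiment. A nearest-neighbour doublet caller (2% assumed) marked 23 and 23 YFP- cells and 0 members. A comparison of members with and without an Rgs5 UMI was not run, because only 2 and 1 members had one. Alternatives used DESeq2 1.42.0, other normalization, filters, thinning to 1000 UMIs and other members. Promoter windows come from RefSeq (GRCm38.p6).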

Additional observations from a re-analysis of the deposited data

Results flagged for a closer look

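The YFP+ libraries, which no comparison above used, held cells with at least 3 of the 6 stromal genes and no UMI of Pecam1 or Ptprc, and they were flagged because they lie outside the measured groups. There were 27 of 1300 cells (2.08%) in experiment 1 and 79 of 1498 (5.27%) in experiment 2. All of them lay above the Ppy limit of the rule, with medians of 4.32 and 4.67 on the natural-log scale against 7.55 and 7.53 in the other YFP+ cells. Ppy made up 2.57% and 1.07% of their UMIs and 18.6% and 19.0% of those of the other YFP+ cells. A YFP UMI was found in 17 (63.0%) and 24 (30.4%) of them, in 68.9% and 55.5% of the other YFP+ cells, and in 0 of 57 and 0 of 131 YFP- stromal cells, counts that allow shares of cells with a YFP UMI of up to 5.26% and 2.29% and do not limit the share of cells that carry or express the reporter. The latter cells had been sorted as YFP-. These cells were shallower than their libraries, and per 10000 UMIs they held 2.45 and 1.55 YFP UMIs against 1.61 and 1.35 in the other YFP+ cells, so that no order is read from the shares. An rtTA UMI was found in 1 and 0 of them against 53.2% and 37.9% of the other YFP+ cells. Fibroblast genes were found in them, with Dpt in 25 and 72, Clec3b in 25 and 79, Sparc in 27 and 79 and Pi16 in 20 and 61 cells, at median depths of 3158 and 2235 UMIs. Levels relative to the YFP- members were 0.91 and 1.08 for Dpt and 0.86 and 1.09 for Gsn, but 0.13 and 0.075 for Mfap4, 0.26 and 0.48 for Igf1 and 0.31 and 0.59 for Mgp. Other genes were higher in the YFP+ cells, among them Sema3c at 2.30 and 1.41 and Sfrp4 at 2.16 and 1.80 times the YFP- level. The cell cycle gene Top2a stood at 108 and 107 against 4.77 and 34.4 CPM. Cell cycle genes went both ways, with Ube2c at 49.1 and 58.9 against 4.77 and 8.60 CPM. Pcna was lower, at 9.82 and 10.7 against 14.3 and 25.8 CPM, levels that rest on a few UMIs. Cdk1 and Birc5 were higher in both experiments, Tyms was lower in both, and Mki67 differed in direction between them. These genes were chosen after their values were seen, and the ratios were not tested. At least 3 endocrine markers were found in 6 and 12 of them.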

How the results depend on the processing

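The shares of stromal cells stayed within their intervals under all 7 alternatives (3.28% to 4.08%, and 7.40% to 7.93%). Thinning every cell to 1000 UMIs lowered the calls to 847 of 3185 genes against endothelial-like cells, 1028 of 3183 against myeloid-like cells and 1219 of 3192 against endocrine cells. Of these calls 747, 950 and 1143 were also made without thinning. Fewer genes passed the filter, and its part in the lower counts was not tested. DESeq2 called 1115, 2118 and 2590 genes and the fit without a low-count filter 1714, 3268 and 3653. The 432 results for single genes include genes not called in the main fit, which could not be lost. DESeq2 lost 41 results, among them Pdgfra, Col6a2, Ebf1, Col5a1, Svep1, Gas1, Gdf10 and Sfrp2 against endothelial-like cells. Fn1 and C4b against myeloid-like cells were lost too. The cause of these losses was not tested. Without the replicate block, which ends the pairing by experiment, 1342, 2471 and 2807 genes were called against 1534, 2736 and 2961 with it, and 9 single results were lost, among them Igfbp7, Ebf1 and Spp1 against endothelial-like cells. The replicate numbers mark shared experiments. After thinning, 368 of the 432 single results stayed the same, 6 were stronger and 8 weaker, and the others fell to the filter. Single results were weaker in 5 cases when cells with markers of another class were left out. They were weaker in 3 cases when at least 4 of the 6 stromal genes were required. Leaving out 1 experiment left no residual degrees of freedom, so only values were computed, and 299 and 276 of the 432 moved by more than 1 SE without experiment 1 and 2. Gpm6a against endocrine cells turned from 2.97 (log2) to -0.104 without experiment 1 and was 2.99 without experiment 2, its UMIs in experiment 1 lying in 2 members, and no other called gene result changed sign under the alternatives run. The divisions by Rgs5 were not run, since too few members had a UMI. At a median of 3719 and 2434 UMIs per member, genes of a few CPM cannot be placed in single cells.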

Other observations

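Most cells with Rgs5 transcripts lay outside the members. Of hormone-poor YFP- cells without Ptprc, 20 in experiment 1 and 22 in experiment 2 had at least 2 Rgs5 UMIs and were not members, at median depths of 5646 and 2944 UMIs. At least 3 of 19 other pericyte and contractile markers were found in 6 and 17 of them and at least 3 endothelial markers in 5 and 18, with both in 4 and 15, and 4 and 18 of them were counted among the endothelial-like cells. In each experiment 2 of these cells had at least 3 pericyte and under 3 endothelial markers, and they had no UMI of Dcn, Col1a1 or Col3a1, while those of experiment 1 had 2 UMIs of Col1a2. Being outside the rule, each had under 3 of its 6 stromal genes or a Pecam1 UMI. In experiment 1 those 2 cells held 11 UMIs of Acta2, 10 of Tagln, 10 of Myl9 and 7 of Rgs5 among 4508 UMIs. These cells were looked at after their values were seen.

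Krt19 and Upk3b, genes of the mesothelium that covers organs, had UMIs in 2 and 4 and in 2 and 1 members. Wt1, which mesothelium and some fibroblasts share, had UMIs in 15 and 22 members and no UMI in the myeloid-like or endocrine classes. Penk, the proenkephalin gene, stood at 591 and 315 CPM in stromal cells and at 968 and 477 CPM in members without Pi16 against 380 and 219 CPM in members with it, a division made after the values were seen.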
